A study of Homo sapiens with 6 samples.

Results

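The 34 genes described here carry glucose into the cell, break it down to pyruvate, and then either turn pyruvate into lactate for export or pass it into the mitochondrion as acetyl-CoA. They were chosen by gene symbol, and all 34 had counts, out of 18768 genes with counts. Their transcripts numbered 333 of the 98886 transcripts analysed. The list was drawn up with earlier results of the same comparison known, the higher level of MPC2 among them, so the values of its members are a description of these libraries and the number of members that passed a test is not support for anything.

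In glycolysis, glucose is phosphorylated by hexokinase, committed to the pathway by phosphofructokinase, split by aldolase and oxidised to pyruvate, with ATP formed by phosphoglycerate kinase and pyruvate kinase. Pyruvate is reduced to lactate by lactate dehydrogenase in the cytosol, or crosses the inner mitochondrial membrane through a carrier made of MPC1 and MPC2 and is converted to acetyl-CoA by the pyruvate dehydrogenase complex. Many tumours, colorectal cancers among them, take up much glucose and release lactate even when oxygen is present, which is called aerobic glycolysis.

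RNA sequencing was performed on HCT116 cells, an established human colorectal carcinoma line. Cells of 1 group (siRNA-NC) received a negative control siRNA and cells of the other (si-AC010789.1) received an siRNA against the long noncoding RNA AC010789.1. Each group had 3 libraries, and the study carried a single siRNA sequence against the target into these experiments, so that an effect of that sequence and of its target cannot be told apart. All cells grew in DMEM with fetal bovine serum and antibiotics, neither group was untransfected, and the labels give no time after transfection. The labels do not say whether the 3 samples of a group were separate cultures, while the study describes them as biological repeats that may have come from different generations of cells, and p-values measure the spread between these samples.

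Libraries held 11277222 to 13443866 counts. Levels are CPM unless TPM is named, the counts of a gene scaled to the total of its library with TMM factors, and 3 counts equalled 0.223 to 0.266 CPM. AC010789.1 itself was not analysed here, so its level is no check of the labels in these counts, and the study states that it verified the knockdown in the sequenced samples. Among epithelial markers, KRT8 stood at 444 to 849 CPM and KRT18 at 351 to 535 CPM, whereas EPCAM reached only 3.10 to 5.58 CPM, CDH17 and LGR5 stayed at 0 to 0.266 CPM, and 5 of the 10 listed markers (KRT19, CDX1, CDX2, VIL1 and CEACAM5) had no counts among the transcripts analysed, which all had at least 3 counts over the 6 libraries. The summed level of the 10 epithelial markers was 984 to 1227 CPM under siRNA-NC and 800 to 1040 CPM under si-AC010789.1, nearly all of it KRT8 and KRT18. For 6 fibroblast markers, 4 of which had counts in every library, the sum was 59.6 to 69.2 CPM under siRNA-NC and 63.8 to 68.5 CPM under si-AC010789.1, with COL1A1 at 37.7 to 48.0 CPM. The sum of 6 immune markers was 6.89 to 9.04 CPM against 3.72 to 6.30 CPM, and that of 4 endothelial markers was 1.73 to 2.48 CPM against 0.872 to 2.51 CPM. EPCAM was thus below COL1A1 in CPM in every library, a comparison not scaled by transcript length. That the cells are HCT116 is taken from the labels, and the identity of the line was not tested. The part these levels have in the results below was not tested, and fewer cells of a type and less RNA per cell cannot be told apart in such libraries.

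Most genes of the pathway, like most of all genes tested, differed little between the groups. Of the 34 genes, 27 had a fitted difference below 0.25 on the log2 scale in either direction (79.4%, against 71.8% of all genes tested). The median log2 fold change was 0.067, against −0.00059 over all genes. Fitted differences were above 0 for 27 of the 34 genes and below 0 for 7. Among all 13764 genes tested, 6867 were above 0 and 6897 below. MPC2, a subunit of the mitochondrial pyruvate carrier, rose 2.78-fold, and SLC2A1, the main glucose transporter of most proliferating cells (GLUT1), rose 1.36-fold. No glycolytic enzyme, lactate dehydrogenase, lactate transporter or subunit of the pyruvate dehydrogenase complex passed the threshold that these did, an edgeR adjusted p-value under 0.05. Values for each gene by library are drawn in pathway order.

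**Figure D1:**
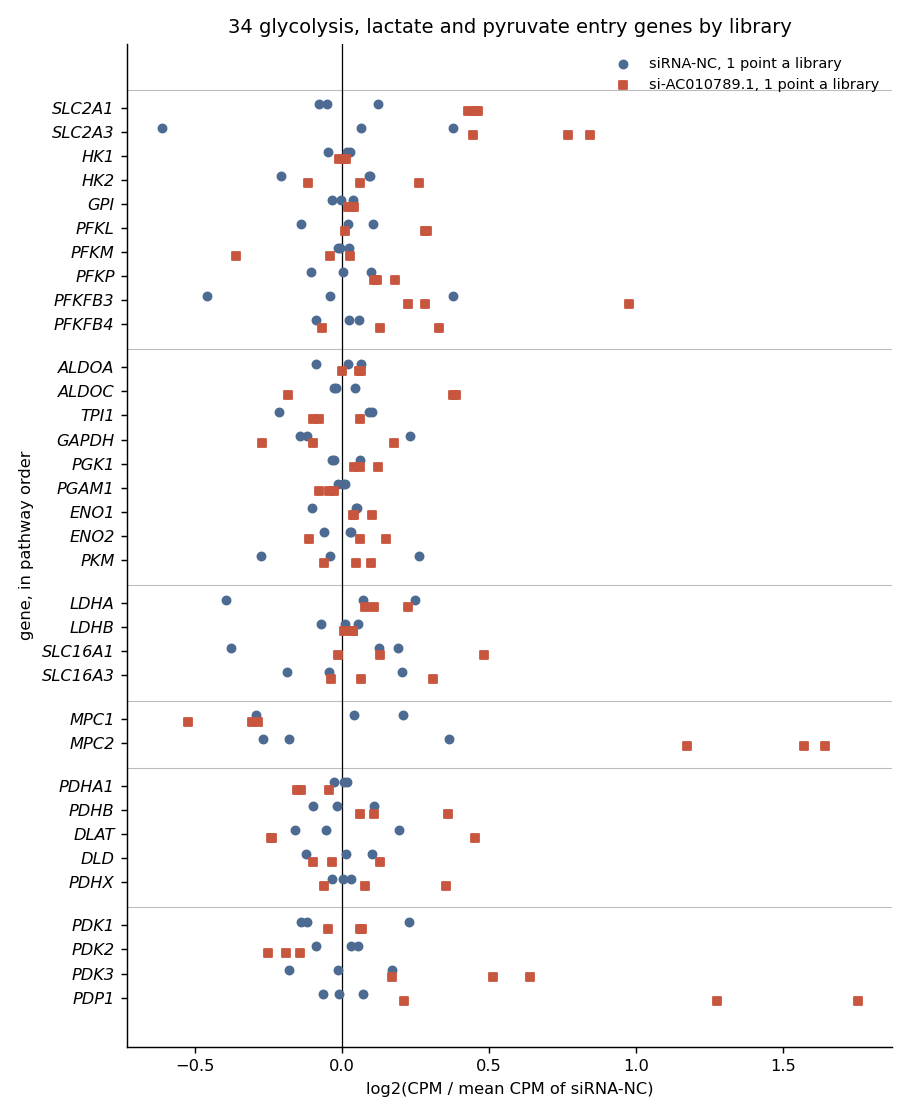
Level of each of the 34 genes in each library, as log2 of its CPM over the mean CPM of the 3 siRNA-NC libraries (horizontal axis), with genes in pathway order on the vertical axis and lines between pathway steps. Circles are siRNA-NC and squares si-AC010789.1 libraries. The squares of MPC2 and SLC2A1 lie to the right of all their circles, those of PDP1 are spread from near 0 to beyond 1.5, and most other genes lie within 0.5 of 0.

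In edgeR's quasi-likelihood test across 13764 genes, 2 of the 34 genes had a Benjamini-Hochberg adjusted p-value under 0.05, both higher under si-AC010789.1, beside 0.944% of all genes tested (0.269% higher and 0.676% lower). At an unadjusted p-value under 0.05 there were 5 of the 34, beside 17.2% of all genes. The 3 libraries of each group did not overlap for 8 of the 34 genes (23.5%), beside 25.1% of all genes: 5 were higher (SLC2A1, SLC2A3, PFKP, MPC2 and PDP1), where 12.2% of all genes were, and 3 were lower (PGAM1, PDHA1 and PDK2), where 12.9% of all genes were. DESeq2 called a further gene, PDP1, 3 of the 34 in all, beside 3.77% of all genes. An exact two-sided permutation test over 3 against 3 libraries cannot give a p-value below 0.1, which is the value of each of those 8 genes.

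SLC2A1 (ENSG00000117394.21, GRCh38 chromosome 1, 42925375 to 42959176, minus strand) brings glucose across the plasma membrane. Its level was 125, 144 and 128 CPM under siRNA-NC replicates 1 to 3 and 178, 181 and 182 CPM under si-AC010789.1 replicates 1 to 3. All 3 si-AC010789.1 libraries were above all siRNA-NC libraries and close to one another. The means were 132 ± 10.1 and 181 ± 2.24 CPM (SD, n = 3 each), a log2 fold change of 0.45 with a standard error of 0.063 and an edgeR adjusted p-value of 0.041. The call was lost when any library other than siRNA-NC replicate 2 was left out (1 gene of the 34 called without that library, none without any of the other 5), while the log2 fold change stayed between 0.41 and 0.51.

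Nearly all SLC2A1 counts belonged to 1 transcript, ENST00000426263 (3670 nucleotides), with 1391, 1897 and 1679 counts under siRNA-NC and 2025, 2249 and 2234 under si-AC010789.1. It rose in step with the gene, with a log2 fold change of 0.44, although the transcript alone had an edgeR adjusted p-value of 0.400 over all transcripts tested. Of its length, 128 nucleotides overlap exons of SLC2A1-AS1 on the opposite strand and 112 overlap AC099795.1 on the same strand, neither of which had counts among the transcripts analysed.

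SLC2A3 (GLUT3), a transporter with high affinity for glucose, was the least abundant gene of the list. Its level was 0.80, 1.58 and 1.27 CPM under siRNA-NC and 1.66, 2.07 and 2.18 CPM under si-AC010789.1. Most of these counts, 61.5% to 100% in a library, were of transcripts annotated as retaining an intron rather than as protein-coding. The groups did not overlap, but the closest pair differed by less than 0.1 CPM, and the log2 fold change of 0.68 ± 0.305 (standard error) had an edgeR adjusted p-value of 0.321. SLC2A1 made up 96.7% to 98.8% of the length-scaled level of both transporters together in every library, so the share of SLC2A3 was small in both groups.

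Hexokinase, which traps glucose as glucose-6-phosphate, did not differ beyond the spread between libraries. HK1, the more abundant isozyme, was at 333 ± 9.42 CPM under siRNA-NC and 334 ± 2.93 CPM under si-AC010789.1. HK2, the isozyme that many tumours raise, was at 66.5 ± 7.71 and 70.2 ± 9.18 CPM, with overlapping groups. GPI, the isomerase that follows, was at 653 ± 15.6 and 668 ± 4.68 CPM.

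Phosphofructokinase, the committing step, is assembled from liver, muscle and platelet type subunits. PFKP, the platelet type, was at 326, 348 and 302 CPM under siRNA-NC and 351, 369 and 354 CPM under si-AC010789.1, so that the groups were separate by a small margin, with a log2 fold change of 0.14 and an edgeR adjusted p-value of 0.317. PFKL was at 107 ± 9.09 and 123 ± 13.2 CPM. PFKM was at 152 ± 2.10 and 140 ± 19.4 CPM, the wide spread coming from si-AC010789.1 replicate 3 at 118 CPM. PFKP was the largest of the 3 in each library, with 58.8% to 68.8% of their length-scaled level.

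The bifunctional enzymes PFKFB3 and PFKFB4 make and degrade fructose-2,6-bisphosphate, an activator of phosphofructokinase. PFKFB3 was at 26.3, 19.7 and 35.1 CPM under siRNA-NC and 53.1, 32.9 and 31.5 CPM under si-AC010789.1. The mean was higher under si-AC010789.1, but only replicate 1 was above all siRNA-NC libraries, and the log2 fold change of 0.53 had an edgeR adjusted p-value of 0.387. PFKFB4 was at 39.4 ± 2.09 and 43.4 ± 5.98 CPM with overlapping groups.

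From aldolase to pyruvate kinase, none of 9 genes passed the threshold and the median log2 fold change was 0.037. All 9 fitted differences were below 0.25 in size, and the median coefficient of variation between libraries of a group was 5.4% under siRNA-NC and 5.6% under si-AC010789.1. GAPDH, ENO1 and PKM, the most abundant messages of the pathway in siRNA-NC, are among them.

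Aldolase splits fructose-1,6-bisphosphate into triose phosphates. ALDOA was at 495 ± 26.9 CPM under siRNA-NC and 509.5 ± 12.6 CPM under si-AC010789.1. ALDOC, the form best known from brain, was at 81.3, 85.5 and 81.7 CPM under siRNA-NC and 108, 108 and 72.9 CPM under si-AC010789.1. Replicates 1 and 2 were above the siRNA-NC range and replicate 3 below it, and the edgeR adjusted p-value was 0.521. TPI1, which interconverts the trioses, was at 658 ± 78.8 and 641 ± 38.6 CPM.

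GAPDH, which oxidises glyceraldehyde-3-phosphate and is often used as a reference message, was the most abundant gene of the list. It stood at 2892, 2945 and 3751 CPM under siRNA-NC and 2987, 2646 and 3612 CPM under si-AC010789.1. The third replicate was the highest in both groups, and the groups overlapped throughout (log2 fold change −0.053). GAPDH has 62 named pseudogenes in the annotation, more than any other of the 34 genes, and how reads shared with such copies were divided is not given in the sources used here.

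PGK1, the first ATP-forming enzyme, was at 864 ± 31.8 CPM under siRNA-NC and 910 ± 27.0 CPM under si-AC010789.1. PGAM1, which moves the phosphate of phosphoglycerate, was at 237, 238 and 234 CPM against 229, 224 and 232 CPM. The groups were separate with PGAM1 lower under si-AC010789.1, but the difference was small at −0.049 on the log2 scale and the edgeR adjusted p-value was 0.557. PGAM1 has 13 named pseudogenes. The enolases ENO1, at 2318 ± 137 and 2417 ± 63.4 CPM, and ENO2, at 53.0 ± 1.93 and 54.3 ± 4.92 CPM, each had overlapping groups. ENO3, an enolase from the list of other glycolytic isozymes, was at 203 ± 24.5 CPM under siRNA-NC and 163 ± 1.66 CPM under si-AC010789.1. The groups of ENO3 were separate and lower under si-AC010789.1, with a log2 fold change of −0.31 and an edgeR adjusted p-value of 0.160. ENO3 was named after its values were seen.

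PKM encodes pyruvate kinase in forms M1 and M2, which differ by 1 of a pair of coding exons that exclude each other, and M2 is the form of most tumours and proliferating cells. The gene sum of PKM was 1971, 1599 and 1358 CPM under siRNA-NC and 1757, 1700 and 1573 CPM under si-AC010789.1. The si-AC010789.1 libraries lay inside the siRNA-NC range, with a log2 fold change of 0.030 and an edgeR adjusted p-value of 0.935.

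The exon pair is printed from the GENCODE v29 transcripts (GRCh38, minus strand, 167 bases each), since the split of PKM into its forms rests on it. It lies at chr15:72203022-72203188 for the M1 type and chr15:72202454-72202620 for the M2 type. Capitals mark the 62 positions at which the exons differ, and the other 105 positions (62.9%) are identical.
PKM1-type exon: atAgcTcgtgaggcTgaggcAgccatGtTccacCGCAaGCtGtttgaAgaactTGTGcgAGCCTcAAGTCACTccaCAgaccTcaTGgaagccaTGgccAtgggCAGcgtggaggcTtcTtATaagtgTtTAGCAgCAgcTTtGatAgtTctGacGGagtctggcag
PKM2-type exon: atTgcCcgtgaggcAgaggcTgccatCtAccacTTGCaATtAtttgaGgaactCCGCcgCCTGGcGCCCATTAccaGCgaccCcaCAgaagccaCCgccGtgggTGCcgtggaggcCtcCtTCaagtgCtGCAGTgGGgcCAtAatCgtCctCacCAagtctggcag

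Of the PKM transcripts analysed, 6 held only the M1-type exon and 4 only the M2-type exon, and these took 60.1% to 83.1% of PKM counts in a library. The M2 type made up 77.8%, 50.4% and 94.7% of typed counts under siRNA-NC and 68.9%, 86.9% and 85.3% under si-AC010789.1. The groups overlapped, and siRNA-NC alone spanned more than the distance between the means of 74.3% ± 22.4 and 80.4% ± 9.98 (SD, n = 3 each). The exact two-sided permutation p-value of the difference was 0.8. The split depends on which transcripts received the counts: ENST00000567118, annotated as a target of nonsense-mediated decay and of the M2 type, held 12620, 0 and 0 counts under siRNA-NC and 10661, 15093 and 12781 under si-AC010789.1.

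Lactate dehydrogenase turns pyruvate and NADH into lactate, with the LDHA subunit favouring that direction. LDHA was at 2054, 1819 and 1317 CPM under siRNA-NC and 1829, 1867 and 2019 CPM under si-AC010789.1. All 3 si-AC010789.1 libraries lay inside the siRNA-NC range, and the log2 fold change of 0.14 had an edgeR adjusted p-value of 0.703. LDHB was steadier, at 914 ± 40.5 and 932 ± 11.5 CPM, and the share of LDHA in both subunits was 51.8% ± 8.09 and 56.4% ± 3.21 (exact two-sided permutation p = 0.5).

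The lactate transporters SLC16A1 (MCT1) and SLC16A3 (MCT4, the exporter of highly glycolytic cells) did not differ beyond their spread. SLC16A1 was at 166, 159 and 112 CPM under siRNA-NC and 203, 144 and 159 CPM under si-AC010789.1. SLC16A3 was at 237, 310 and 261 CPM against 262, 281 and 334 CPM. In each, 1 si-AC010789.1 library was above the siRNA-NC range and the other 2 were inside it, and their edgeR adjusted p-values were 0.608 and 0.683.

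MPC2 (ENSG00000143158.10, GRCh38 chromosome 1, 167916729 to 167937040, minus strand) had the largest difference of the 34 genes. Its level was 11.1, 16.1 and 10.4 CPM under siRNA-NC and 37.3, 28.2 and 39.1 CPM under si-AC010789.1. Every si-AC010789.1 library was above every siRNA-NC library, the lowest being 28.2 against 16.1 CPM. The means were 12.5 ± 3.12 and 34.9 ± 5.79 CPM (SD, n = 3 each), a log2 fold change of 1.47 with a standard error of 0.207 and an edgeR adjusted p-value of 0.040. Leaving out any 1 of the 6 libraries ended the call, and the log2 fold change then lay between 1.35 and 1.70. Over 12 alternative settings, of which DESeq2 was 1, the adjusted p-value ran up to 0.186 and was under 0.05 in 3, with DESeq2, with RLE size factors and with a mean of at least 1 CPM.

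**Figure D2:**
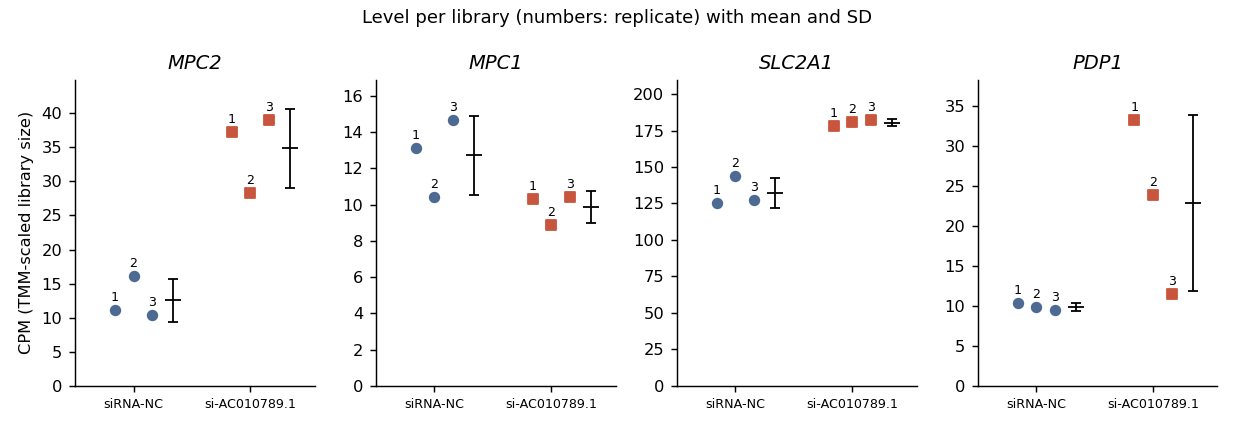
Level in CPM (vertical axes start at 0 and differ between panels) of MPC2, MPC1, SLC2A1 and PDP1 in each library, with circles for siRNA-NC and squares for si-AC010789.1, the replicate number above each point, and the mean and SD (n = 3) as a bar beside each group. MPC2 and SLC2A1 show separate groups, MPC1 overlaps at its lower end, and PDP1 has 3 close siRNA-NC values beside si-AC010789.1 values from 11.4 to 33.2 CPM.

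The counts of MPC2 came from ENST00000367846, a protein-coding transcript of 2177 nucleotides that held 97.3% of them on average. Its counts were 122, 209 and 138 under siRNA-NC and 400, 338 and 483 under si-AC010789.1. The log2 fold change of this transcript was 1.44 with a standard error of 0.266 and an edgeR adjusted p-value of 0.355 over all transcripts tested. Of the same transcript, 258 nucleotides overlap exons of DCAF6, a gene on the opposite strand. The level of DCAF6 was 202 ± 9.07 CPM under siRNA-NC and 191 ± 11.2 CPM under si-AC010789.1 (log2 fold change −0.076, edgeR adjusted p-value 0.575), and whether counting used strand is not given in the sources used here.

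MPC1, without which MPC2 does not form the usual working carrier, was not higher. Its level was 13.1, 10.4 and 14.7 CPM under siRNA-NC and 10.3, 8.86 and 10.4 CPM under si-AC010789.1. The groups overlapped by a narrow margin, and the log2 fold change was −0.37 with a standard error of 0.157 and an edgeR adjusted p-value of 0.303. On the length-scaled level (TPM, the count per base of transcript, scaled to a fixed sum in each library), MPC2 made up 25.05%, 40.4% and 22.9% of both subunits together under siRNA-NC and 63.3%, 58.1% and 61.5% under si-AC010789.1. MPC2 was therefore the smaller part in every siRNA-NC library and the larger part in every si-AC010789.1 library, a difference of 31.5 percentage points in means, with the smallest exact two-sided permutation p-value that the design allows (0.1, and 0.56 after adjustment over 14 shares).

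**Figure D3:**
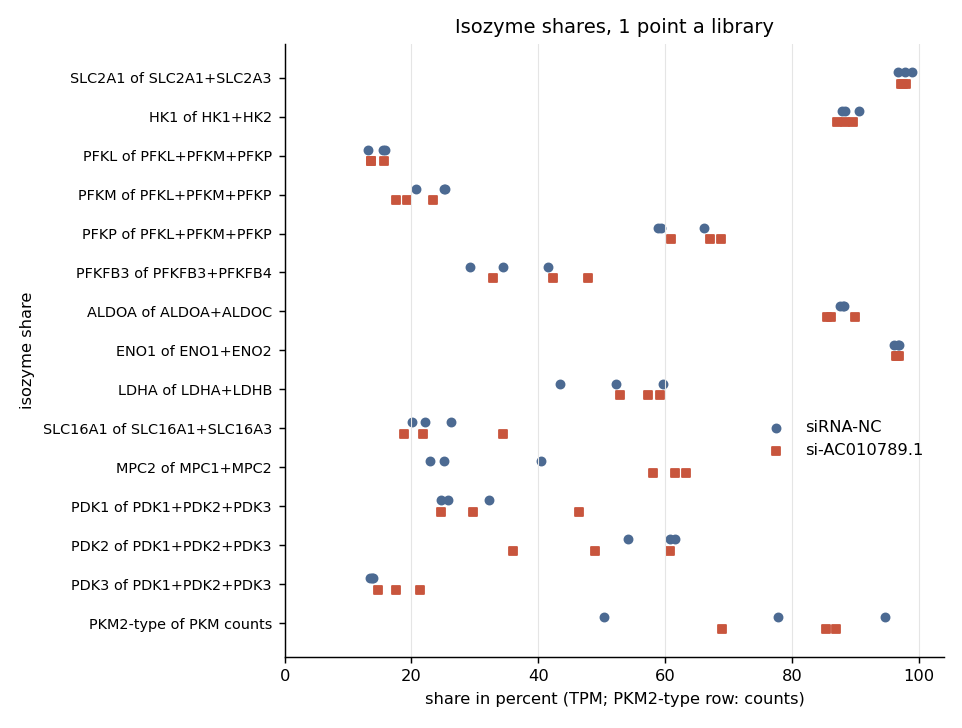
Share of 1 isozyme or subunit in the summed length-scaled level (TPM) of its pair or trio, in percent on the horizontal axis, for 14 shares, with the M2-type share of typed PKM counts in the last row. Circles are siRNA-NC and squares si-AC010789.1 libraries. The groups are separate for the MPC2 share and, narrowly, for the PDK3 share, and the siRNA-NC circles of the PKM row run from 50.4% to 94.7%.

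The pyruvate dehydrogenase complex, which converts pyruvate to acetyl-CoA, had no member past the threshold, and the median log2 fold change of its 5 genes was 0.030. PDHA1, the catalytic subunit that carries the regulatory phosphorylation sites, was at 257, 259 and 251 CPM under siRNA-NC and 248, 232 and 230 CPM under si-AC010789.1. The groups were separate with PDHA1 lower, by −0.11 on the log2 scale, with an edgeR p-value of 0.0487 before and 0.288 after adjustment. PDHB, its partner in the same enzyme, was at 56.5 ± 4.09 and 64.0 ± 7.31 CPM. The PDHB groups overlapped.

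DLAT, the acetyltransferase core, was at 53.8 ± 6.91 CPM under siRNA-NC and 55.0 ± 16.2 CPM under si-AC010789.1, where replicate 3 reached 73.7 CPM. DLD, the dihydrolipoamide dehydrogenase shared with other complexes, was at 97.8 ± 7.56 and 97.9 ± 8.11 CPM. PDHX, which anchors that enzyme to the core, was at 51.4 ± 1.13 and 56.5 ± 8.46 CPM. None of these differences exceeded the spread between libraries.

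Pyruvate dehydrogenase kinases switch the complex off and the phosphatase PDP1 switches it on again. PDP1 was at 10.4, 9.79 and 9.44 CPM under siRNA-NC and 33.2, 23.9 and 11.4 CPM under si-AC010789.1. The groups were separate, but replicate 3 of si-AC010789.1 lay just above the highest siRNA-NC library while replicate 1 was far above it. The log2 fold change was 1.21 with a standard error of 0.361, the edgeR adjusted p-value was 0.174, and DESeq2 gave an adjusted p-value of 0.022. The highest si-AC010789.1 libraries drew on different transcripts: ENST00000297598 held 328, 56 and 82 counts in replicates 1 to 3 and ENST00000517764 held 37, 194 and 29.

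PDK1, the kinase best known as a target of hypoxia signalling, was at 48.2 ± 7.09 CPM under siRNA-NC and 49.1 ± 2.17 CPM under si-AC010789.1. PDK2 was at 18.6, 20.5 and 20.2 CPM against 17.9, 16.6 and 17.3 CPM. The groups of PDK2 were separate with si-AC010789.1 lower, by −0.19 on the log2 scale and with an edgeR adjusted p-value of 0.306. PDK3 was at 5.13, 6.55 and 5.77 CPM against 6.54, 8.30 and 9.06 CPM, groups that just overlapped, with a log2 fold change of 0.45 and an edgeR adjusted p-value of 0.258. The share of PDK3 in the summed TPM of the 3 kinases was 13.5% to 13.9% under siRNA-NC and 14.7% to 21.3% under si-AC010789.1, with an exact permutation p of 0.1 (two-sided, 0.56 after adjustment over 14 shares).

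Levels of different genes were compared only per length, as TPM. GAPDH led under siRNA-NC at 3990 ± 679 TPM, above all libraries of the next gene, PKM. PKM, ENO1, LDHA and LDHB followed between 2389 and 1815 TPM, and each overlapped its neighbour in that order. TPI1 stood apart below them at 1069 ± 110 TPM, followed by PGK1 and ALDOA, which overlapped each other. The rest descended from GPI at 416 TPM to SLC2A3 at 1.70 TPM, the 5 least abundant being PDK1, MPC2, PDP1, PDK3 and SLC2A3.

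MPC2 held rank 31 of 34 under siRNA-NC at 11.6 ± 3.11 TPM and rank 24 under si-AC010789.1 at 33.1 ± 4.57 TPM. SLC2A1 moved from rank 21 at 74.2 ± 4.03 TPM to rank 17 at 98.6 ± 1.95 TPM. MPC1 moved from rank 26 to rank 30, at 28.3 ± 5.14 and 21.1 ± 0.846 TPM. TPM and CPM did not always move together. PKM went from rank 2 at 2389 ± 499 TPM to rank 4 at 1975 ± 225 TPM, while its CPM means were 1643 and 1677. PGK1 went from rank 7 at 776 ± 165 TPM to rank 8 at 626 ± 23.1 TPM, while its CPM means were 864 and 910. The TPM groups of both genes overlapped. In all, the 34 genes took 1.491% to 1.518% of the counts of a library under siRNA-NC and 1.521% to 1.603% under si-AC010789.1. These ranges were separate by a narrow margin, and the difference was not tested.

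**Figure D4:**
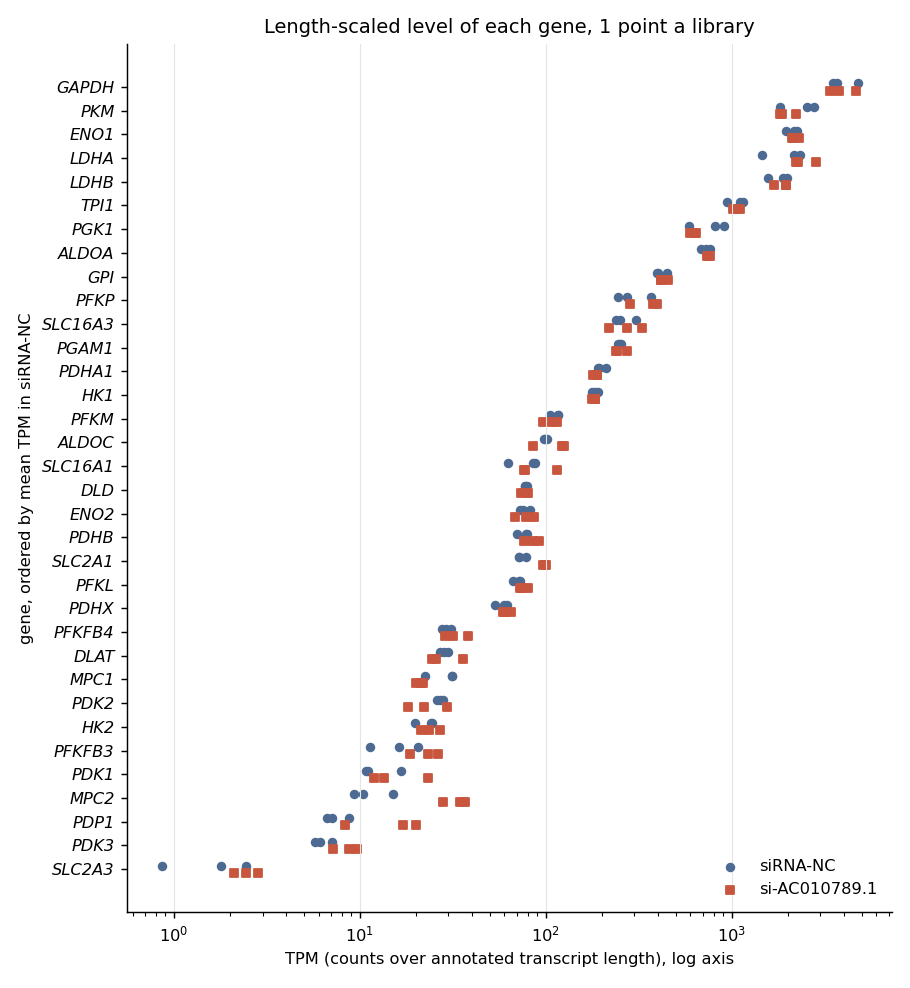
Length-scaled level (TPM, log axis) of each gene in each library, ordered by the siRNA-NC mean, with circles for siRNA-NC and squares for si-AC010789.1. Levels run from about 1 TPM for SLC2A3 to 4767 TPM for GAPDH, and the squares of MPC2 lie well to the right of its circles.

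Transcripts within a gene varied far more between libraries than the gene sums. Of the 333 transcripts, 195 passed the filter on low counts and none had an edgeR adjusted p-value under 0.05, beside 0.0135% of all transcripts tested, the lowest value being 0.355. At an unadjusted p-value under 0.05 there were 18, beside 5.73% of all transcripts. The groups did not overlap for 31 (15.9%), beside 14% of all transcripts. DESeq2 called 4, beside 1.53% of all transcripts, and these were ENST00000367846 of MPC2, ENST00000426263 of SLC2A1, ENST00000540430 of LDHA and ENST00000568459 of PKM.

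Among the 102 member transcripts with a mean of at least 100 counts, the median coefficient of variation within a group was 29.6%, against 8.01% for the gene sums. The transcript with the most counts was the same in all 6 libraries for 22 genes and changed between libraries for 12. In LDHA, ENST00000379412 held 5351, 5107 and 6256 counts under siRNA-NC and 7848, 0 and 0 under si-AC010789.1. Transcripts annotated as protein-coding took 63.0%, 68.1% and 67.3% of the counts of the 34 genes under siRNA-NC. Under si-AC010789.1 they took 62.8%, 60.6% and 55.8%, so the groups were separate by a narrow margin, a difference that was not tested. Of the counts of all genes they took 83.2% to 83.8% in a library. In 20 of the 34 genes that share was over 90% in every library, and in 7 it was under 50% in at least 1 library.

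**Figure D5:**
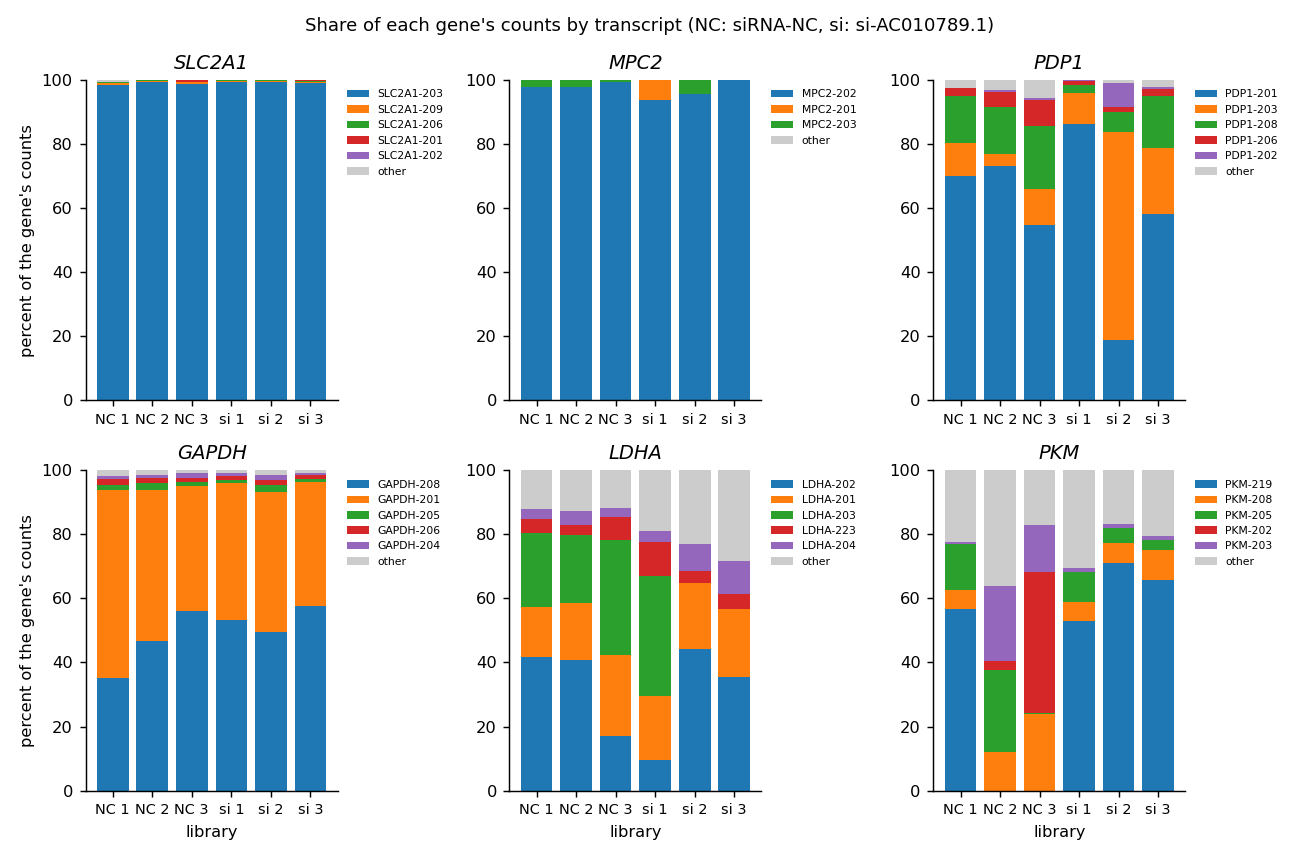
Percent of the counts of SLC2A1, MPC2, PDP1, GAPDH, LDHA and PKM held by each gene's 5 most abundant transcripts (coloured by transcript name) and by all others (grey), in each of the 6 libraries. SLC2A1 and MPC2 rest on 1 transcript in every library, while the leading transcript of PDP1, GAPDH, LDHA and PKM differs between libraries of the same group.

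ENO1, PKM, LDHA and GAPDH were the abundant genes with low protein-coding shares. The protein-coding share of ENO1 counts averaged 41.5% under siRNA-NC and 27.6% under si-AC010789.1, and that of PKM 47.1% and 17.2%, with overlapping groups in both. When protein-coding transcripts alone were summed, the log2 fold change of ENO1 became −0.52 and that of PKM −1.30, with edgeR adjusted p-values of 0.523 and 0.307, so the sign of these genes depended on which transcripts were counted. SLC2A1 and MPC2 kept their log2 fold changes under that sum (0.46 and 1.48), each with an edgeR adjusted p-value of 0.068.

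Genes of neighbouring reactions were taken from 6 further lists. Of 101 listed genes 80 were tested, and none had an edgeR adjusted p-value under 0.05, beside 0.944% of all genes, while 17 had an unadjusted p-value under 0.05, beside 17.2% of all genes. DESeq2 called 2 of the 80, ME1 among them, beside 3.77% of all genes. The groups did not overlap for 23 of the 80 (28.8%), beside 25.1% of all genes, and the median log2 fold change was −0.025.

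Other glycolytic isozymes and side branches gave 13 tested genes with a median log2 fold change of −0.099. The groups did not overlap for 5 of the 13, all lower under si-AC010789.1, beside 25.1% of all genes separate and 12.9% separate and lower, and none of the 5 passed the threshold. The largest of these differences was that of PGM2, a phosphoglucomutase (58.7 ± 3.26 against 46.6 ± 3.42 CPM, log2 fold change −0.33, edgeR adjusted p-value 0.123). Among 12 tested partners of lactate and pyruvate metabolism the median was −0.037, and the largest separate difference was that of LIAS, which makes the lipoyl group used by DLAT. LIAS was at 4.10 ± 0.222 and 2.88 ± 0.351 CPM (log2 fold change −0.50, edgeR adjusted p-value 0.212).

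The 24 genes of the TCA cycle and citrate export, all tested, had a median log2 fold change of 0.017. ME1, malic enzyme, which forms pyruvate from malate, had a log2 fold change of 0.41 with an edgeR adjusted p-value of 0.080 and was named because DESeq2 called it, after its values were seen.

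In the pentose phosphate pathway, 7 genes were tested with a median log2 fold change of −0.015. The groups did not overlap for 4 of the 7, beside 25.1% of all genes. Of these, 1 was higher and 3 were lower under si-AC010789.1, beside 12.2% and 12.9% of all genes. RPIA, ribose-5-phosphate isomerase, had the largest separate difference there, at 16.4 ± 2.13 and 22.4 ± 0.852 CPM (log2 fold change 0.46, edgeR adjusted p-value 0.123). The 2 tested genes of gluconeogenesis had a median of −0.11 with overlapping groups. Among 22 regulators of hypoxia and glucose sensing and their target genes, the median was −0.075, and HIF1AN, the asparagine hydroxylase that restrains HIF1A, had the largest separate difference, at 101 ± 4.58 and 121 ± 10.6 CPM (log2 fold change 0.27, edgeR adjusted p-value 0.164).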

How the data were processed

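RNA sequencing of 6 HCT116 libraries, 3 with siRNA-NC and 3 with si-AC010789.1, was analysed. The authors deposited counts, as whole numbers per Ensembl transcript and library with no normalization. Libraries were TruSeq paired-end libraries, and the submitters' processing notes name CASAVA 1.8, TopHat2 2.0.6, and the builds GRCh38 and mm10 without roles, while the counting program, the annotation and the use of strand are not given in the sources used here. The labels put each sample in its group.

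Transcript counts were added up by gene with the GENCODE v29 annotation (GRCh38), which matched 98803 transcripts and left out 83, keeping 99.907% to 99.941% of the counts of a library. Genes and transcripts were each fitted over the whole table with edgeR 4.0.16 in R 4.3.3 (TMM factors of 0.99351 to 1.0073, filterByExpr at its minima of 10 counts and 15 in total, glmQLFit and glmQLFTest) and adjusted by Benjamini-Hochberg, with a threshold of 0.05. The standard error is the absolute log2 fold change divided by the square root of the F statistic. TPM were computed from counts and annotated transcript lengths, and shares were compared by exact two-sided permutation over the 6 libraries. The level given for 3 counts covers counting error only. Libraries of a group differed beyond counting noise in all pairs (mean squared difference in Poisson units 13.6 to 16.8), so none was counted as a duplicate. On data simulated for the gene comparison (13818 genes tested), 70.1% of genes changed by 1 on the log2 scale and 100% of those changed by 2 were recovered. For transcripts (46144 tested) it was 0% and 1.49%, and 81.8% of those changed by 6. Each simulation gave all its genes or transcripts 1 common spread, so these rates need not hold for single genes or transcripts.

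The members and gene lists were chosen with earlier results of these data known, and are from general knowledge. All 34 members are named, as are genes of other lists past the threshold, the gene of each list with the largest difference among those tested with separate groups, genes overlapping a called member, transcripts of called members with a mean of at least 10 counts and member transcripts past the threshold. The values of 1 gene that this rule names are not reported here. Alternatives were DESeq2 1.42.0, its size factors (RLE) in edgeR, no filter, a mean of at least 1 CPM, the replicate number as a block, protein-coding transcripts alone, other length scalings, and leaving out each library.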

Additional observations from a re-analysis of the deposited data

How the results depend on the processing

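SLC2A3, the lowest member, lay at 0.80 to 2.18 CPM, where 3 counts equalled 0.223 to 0.266 CPM. The number of members past the threshold was 2 with RLE size factors and with a mean of at least 1 CPM, 3 with DESeq2, 0 without a filter, 0 with protein-coding transcripts alone, 0 with the replicate number as a block, and 0 to 1 when a library was left out. The 1 was SLC2A1 without siRNA-NC replicate 2. The cause of these differences was not tested. SLC2A1 was under the threshold in 4 and MPC2 in 3 of 12 alternatives, with log2 fold changes of 0.41 to 0.51 and 1.35 to 1.70 that kept their sign, and PDP1 (0.84 to 1.53) was under it with DESeq2 alone. Among all genes, 0 were called under the block (2162 at an unadjusted p-value under 0.05), 12 to 37 without a library, 69 without a filter, 56 with protein-coding transcripts alone and 519 with DESeq2.

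Replicate numbers occur in both groups. Over the genes tested, libraries of the same number deviated little together (correlations of deviations from the group means of 0.090, 0.0027 and 0.00065). Such correlations cannot exclude a culture or day shared by number, which the labels do not state. Of the 3 siRNA-NC libraries, the first correlated best with its own number and the others did not. With the replicate block, the log2 fold changes of SLC2A1 and MPC2 were 0.45 and 1.48, with adjusted p-values of 0.159 and 0.186.

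DESeq2 called 2 other genes of the pathway and 4 member transcripts. Without a library, 0 to 1 member transcripts were called, ENST00000567118 of PKM without siRNA-NC replicate 1 and ENST00000379412 of LDHA without si-AC010789.1 replicate 1. The sign of the log2 fold change turned for HK1 (−0.0040) and DLD (−0.0054) without a filter, and for ENO1 (−0.52), PKM (−1.30), LDHA (−0.015) and PDK1 (−0.0053) with protein-coding transcripts alone. When a library was left out, log2 fold changes ran from −0.021 to 0.016 for HK1, −0.027 to 0.17 for HK2, −0.00066 to 0.072 for ALDOA, −0.13 to 0.015 for TPI1, −0.18 to 0.077 for GAPDH, −0.020 to 0.10 for ENO2, −0.092 to 0.18 for PKM, −0.026 to 0.28 for LDHA, −0.0044 to 0.056 for LDHB, −0.24 to 0.15 for DLAT, −0.068 to 0.056 for DLD and −0.039 to 0.15 for PDK1. The other 21 members kept their sign in all 12 alternatives.

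Differences of shares, in percentage points, turned for PFKL without length scaling (1.48), and with protein-coding transcripts alone for ENO1 (−1.10), LDHA (−1.67), PDK1 (−5.14) and the M2 type of PKM (−40.9). Without a library they ran from −0.740 to 0.316 for SLC2A1, −1.22 to 0.217 for HK1, −2.11 to 0.0753 for ALDOA, −0.184 to 0.208 for ENO1, −2.49 to 5.36 for SLC16A1, −0.328 to 10.6 for PDK1 and −5.87 to 16.3 for the M2 type of PKM. The MPC2 share kept its direction, from 28.2 to 37.0 percentage points.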
